A study of Mus musculus with 6 samples.

Results

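The genes described here belong to the BMP, TGF-beta and Wnt signalling families, measured in newborn forearm bones of the mouse. They were chosen by a rule on gene names, set with earlier results of these data known. The rule took in Id1 to Id4, the Bmp, Bmpr, Tgfb, Tgfbr, Smad, Ltbp and Inhb genes, and the Wnt, Fzd, Lrp5, Lrp6, Sfrp, Dkk and Axin genes. Of 5780 genes that the platform's annotation names by a single symbol, 44 were members, with 13 in the BMP family, 16 in the TGF-beta family and 15 in the Wnt family. Id4, Axin2, Bmp2, Dkk1 and the Inhb genes were not among the members, so nothing is said of them here. Each member had 1 probe set. Total RNA from radii and ulnae of strain 129sv mice was hybridised to 6 arrays, of which 3 held wild-type RNA and 3 RNA of littermates with the del175k mutation of Tnni2, which encodes the fast skeletal muscle form of troponin I. The labels do not give the number of mutant alleles, do not say whether each array held 1 mouse, and name no batch, so p-values here reflect sample-to-sample spread that may be technical in part. The comparison asks how gene expression differs in the bones of the mutants.

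BMPs, TGF-betas and Wnts are secreted signals that direct the formation, growth and turnover of the skeleton. BMP and TGF-beta ligands bind pairs of type I and type II receptor kinases, which phosphorylate Smad proteins that enter the nucleus with the shared partner Smad4, and Id genes are classic targets of BMP signalling. Wnt ligands bind Frizzled receptors, on the beta-catenin branch together with Lrp5 or Lrp6, while Dkk and Sfrp proteins modulate this binding in the extracellular space and Axin holds beta-catenin in a complex that marks it for degradation. In bone, TGF-beta is stored in the matrix in a latent form bound to Ltbp proteins, and Wnt signalling through Lrp5 promotes bone formation.

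The values are array intensities on a linear scale, with a median over all 8997 probe sets between 39.6 and 48.4 per array. The lowest of these medians was that of wild-type replicate 1, which also held the lowest of the 6 values in 50.0% of probe sets and in 24 of the 44 members (54.5%). Bone markers were bright, with a summed intensity of 6 measured osteoblast genes between 9050 and 11469 on the wild-type arrays and between 10617 and 11940 on the mutant arrays. The 10 measured chondrocyte markers summed to between 4590 and 7122 and between 6294 and 7161. Muscle RNA was present too, and 8 measured fast muscle fibre genes summed to between 1519 and 3420 on the wild-type arrays and between 2155 and 2795 on the mutant arrays. Summed intensities of 6 epidermal genes were 1798, 1248 and 47.3 on wild-type arrays 1 to 3 and 75.3, 460 and 51.3 on mutant arrays 1 to 3. The 4 measured osteoclast genes (of 8 listed) summed to between 594 and 1028 on the wild-type arrays and between 1177 and 1690 on the mutant arrays, without overlap. The part of these other tissues in the results below was not tested. In bulk tissue, fewer cells of a type and less RNA per cell cannot be told apart.

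No member passed the test at an adjusted p of 0.05 (limma, adjusted over all 8997 probe sets), and the same was true of every probe set (0 of 8997, or 0%). The members leaned towards higher values in the mutants. At an unadjusted p under 0.05 there were 7 members, all with higher means in the mutants, or 15.9% of the 44, where 5.74% of all probe sets were higher and 1.7% lower at that level (7.44% in all). These were Id2, Fzd7, Tgfbr3, Tgfb3, Lrp6, Tgfbr1 and Smad4. All 3 mutant arrays lay above all 3 wild-type arrays in 6 members (13.6%), against 9.18% of all probe sets, and below them in 0 members, against 3.89% of all probe sets. A higher mean in the mutants was seen in 29 of 44 members (65.9%), against 56.7% of all probe sets, and the median log2 difference, mutant minus wild-type, was 0.079 over the members and 0.045 over all probe sets. Over the 5780 genes with a single symbol, taken with 1 probe set each, the median was 0.072, near that of the members. In that fit 8 members (18.2%) had an unadjusted limma p under 0.05, against 9.76% of these genes.

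The share of members at an unadjusted p under 0.05 was near the background when wild-type replicate 1, mutant replicate 1 or mutant replicate 2 was left out. The share with higher means and the median fell without wild-type replicate 1 both in the members and in all probe sets. Without wild-type replicate 1, 24 of 44 members (54.5%) had higher means in the mutants, against 44.7% of all probe sets, and the medians were 0.056 and -0.033. The count at an unadjusted p under 0.05 was then 3, with Id2 and Fzd7 higher and Sfrp4 lower, where 3.2% of all probe sets were higher and 3.41% lower. These 3 members were 6.82% of the 44, near the 6.61% of all probe sets. Leaving out mutant replicate 1 gave a count of 2 (4.55% of the members, 3.58% of all probe sets), and leaving out mutant replicate 2 a count of 3 (6.82% and 4.37%), again near the background. The share stayed above the background without wild-type replicate 2 (22.7% and 10.8%), wild-type replicate 3 (11.4% and 6.91%) or mutant replicate 3 (13.6% and 9.31%). A fit with fewer arrays can also have less power, and the cause of these shifts was not tested. After median centring of each array 24 of 44 were higher (48.3% of all probe sets), and after quantile normalization 22 of 44 (47.6% of all probe sets). Id2 and Fzd7 were the only members at an unadjusted p under 0.05 under each of the 16 alternative settings.

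Receptor genes held most of the larger differences. Among 13 receptor genes of all 3 families, 12 had higher means in the mutants, and their median log2 difference was 0.56. Among the 31 other members 17 were higher, with a median of 0.013. The division by role was drawn with values already known, so it is a description with no test. Without wild-type replicate 1 the receptors' median was 0.28, with the same count of 12, and that of the other members was -0.069. The median receptor deviated from its own mean over the 6 arrays by -0.61, 0.13 and -0.22 (log2) on wild-type arrays 1 to 3 and by 0.38, 0.30 and 0.092 on mutant arrays 1 to 3. Wild-type replicate 2 thus stood above mutant replicate 3 on this measure, and wild-type replicate 1 was the lowest array in 10 of 13 receptors (76.9%).

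**Figure D1:**
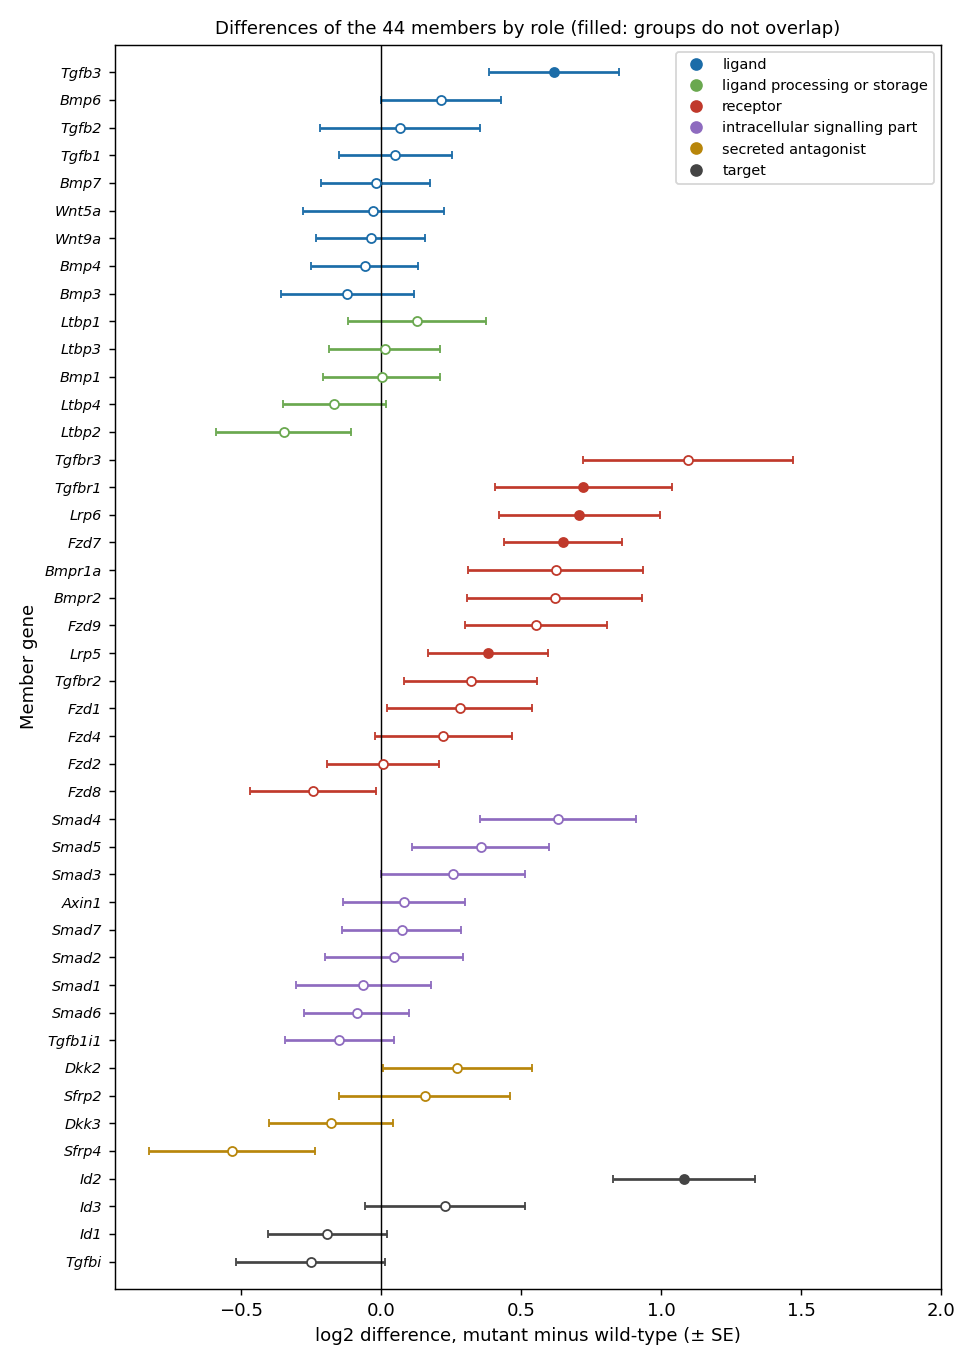
The log2 difference between mutant and wild-type means (± SE, 3 arrays per group) is plotted for each of the 44 members, coloured by role, with filled points where the groups do not overlap. Receptors hold 12 differences above 0, up to 1.10 for Tgfbr3, while ligands other than Tgfb3 lie between -0.12 and 0.22.

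**Figure D2:**
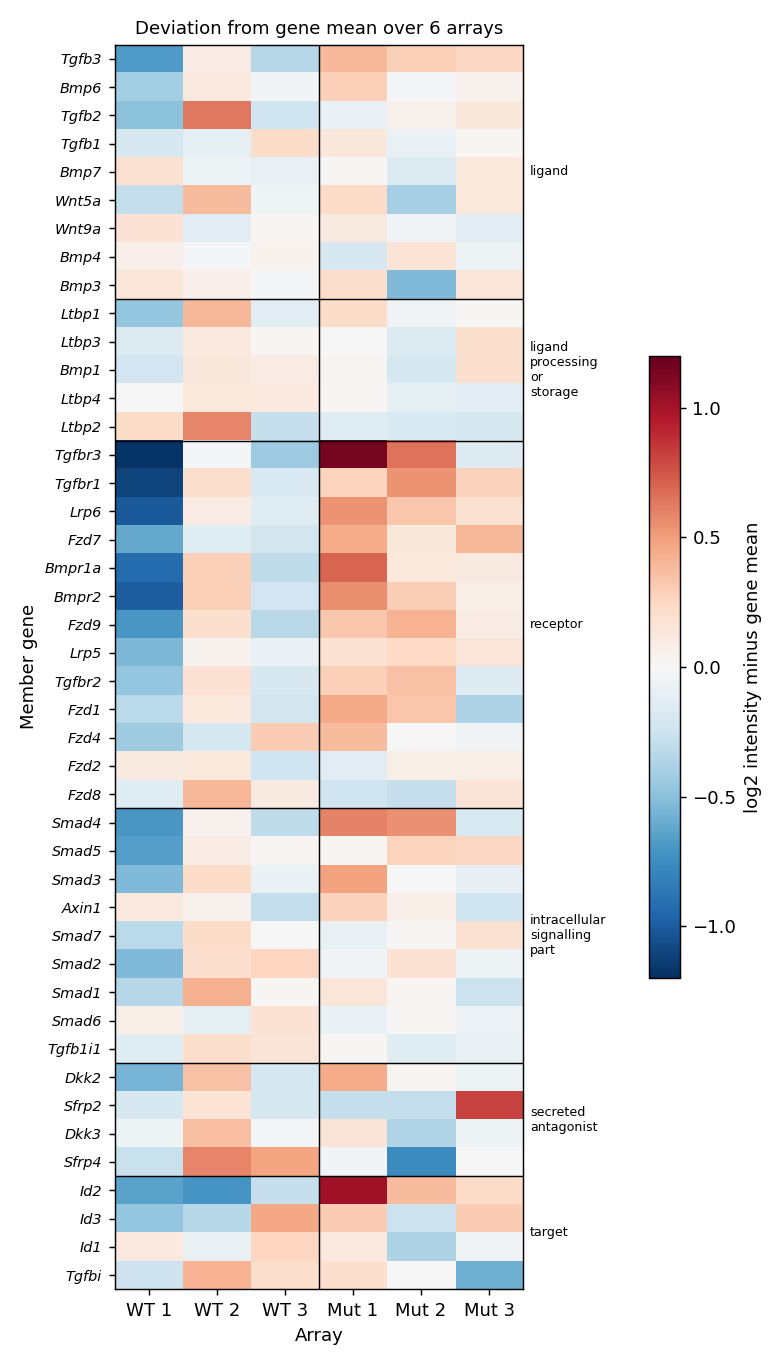
Colour gives each array's log2 intensity minus that gene's mean over the 6 arrays, with genes ordered by role and arrays by group (WT, wild-type; Mut, del175k mutant). The column of wild-type replicate 1 is blue for most receptors, and the column of mutant replicate 1 holds the deepest red for Tgfbr3 and Id2.

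Of 9 ligands, 1 (11.1%) had groups that did not overlap. This is near the background, where mutant arrays were all above in 9.18% and all below in 3.89% of probe sets. Tgfb3, the TGF-beta isoform known for its part in palate closure and tendon and cartilage development, had intensities of 59.9, 103 and 75.9 on wild-type arrays 1 to 3 and 125.7, 117.6 and 114.3 on mutant arrays 1 to 3. All mutant values were above the wild-type ones and close to each other. The group means were 79.6 ± 21.8 and 119 ± 5.87 (SD, n = 3 each), a log2 difference of 0.62 ± 0.23 (SE, limma adjusted p = 0.663), and 0.43 without wild-type replicate 1. The sister ligands did not share this difference in size: Tgfb1, an abundant growth factor of bone matrix, was at 54.0 ± 8.41 and 55.7 ± 4.23, and Tgfb2 at 21.7 ± 9.46 and 21.5 ± 1.54 (SD, n = 3 each). The difference between these isoforms was not tested.

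The BMP ligands lay close to their wild-type levels. Bmp4, which drives early skeletal patterning, had a log2 difference of -0.058 ± 0.19 (SE), Bmp7 of -0.019 ± 0.19, and Bmp3, an inhibitory member of the family made by bone cells, of -0.12 ± 0.24. Bmp6, made by hypertrophic chondrocytes, had a log2 difference of 0.22 ± 0.21. The measured Wnt ligands were Wnt5a, the main ligand of the beta-catenin-independent branch, and Wnt9a, which marks forming joints. Their log2 differences were -0.027 ± 0.25 and -0.037 ± 0.19 (SE). Several of these genes were dim: Bmp7, Tgfb2 and Wnt5a each reached an intensity of 20 on 3 of the 6 arrays.

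The proteins that process or store ligands showed little difference. Bmp1, which despite its name is a protease that trims procollagens and releases ligands from their inhibitors, had wild-type values of 154.7, 199.1 and 194.3 and mutant values of 185.5, 156.6 and 207.3. The ranges overlapped, with a log2 difference of 0.003 ± 0.21 (SE). Ltbp3, needed for TGF-beta release in bone, was at 164.7, 199.7 and 187.3 and at 183, 164.6 and 210.4, a log2 difference of 0.013 ± 0.20. Ltbp1 was at 0.13 ± 0.25 and Ltbp4 at -0.17 ± 0.18. Ltbp2, which binds fibrillin rather than latent TGF-beta, had mutant values of 33.7, 33 and 32.7 against scattered wild-type values of 43.4, 56 and 30.8, a log2 difference of -0.35 ± 0.24 (limma adjusted p = 0.745) that was -0.14 without wild-type replicate 2. Without wild-type replicate 1 the differences of all 5 genes of this kind were below 0, and their median was -0.11 against 0.003 with all arrays.

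Tgfbr3 and Tgfbr1 had the largest log2 differences of the TGF-beta family. Tgfbr3, or betaglycan, a co-receptor that presents ligand to the signalling receptors, had intensities of 34.5, 76.7 and 57.8 on wild-type arrays 1 to 3 and 173.2, 123.1 and 70.1 on mutant arrays 1 to 3. The mutant arrays were spread widely, and the lowest of them was below wild-type replicate 2, so the groups overlapped. The means were 56.3 ± 21.2 and 122 ± 51.5 (SD, n = 3), a log2 difference of 1.10 ± 0.37 (SE, limma adjusted p = 0.638), or 2.14-fold. Tgfbr1, the type I kinase, was at 13.8, 34.5 and 26.2 in the wild-type and at 35.9, 43.4 and 36.2 in the mutants. Its groups did not overlap, but the gap between wild-type replicate 2 and the nearest mutant array was small. Its log2 difference of 0.72 ± 0.32 (SE, limma adjusted p = 0.669) was 0.35 without wild-type replicate 1. Tgfbr2, the type II kinase, was at 124.3, 192.9 and 149.7 and at 208.6, 218.6 and 153.4, with overlap, a log2 difference of 0.32 ± 0.24 that was 0.17 without wild-type replicate 1.

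**Figure D3:**
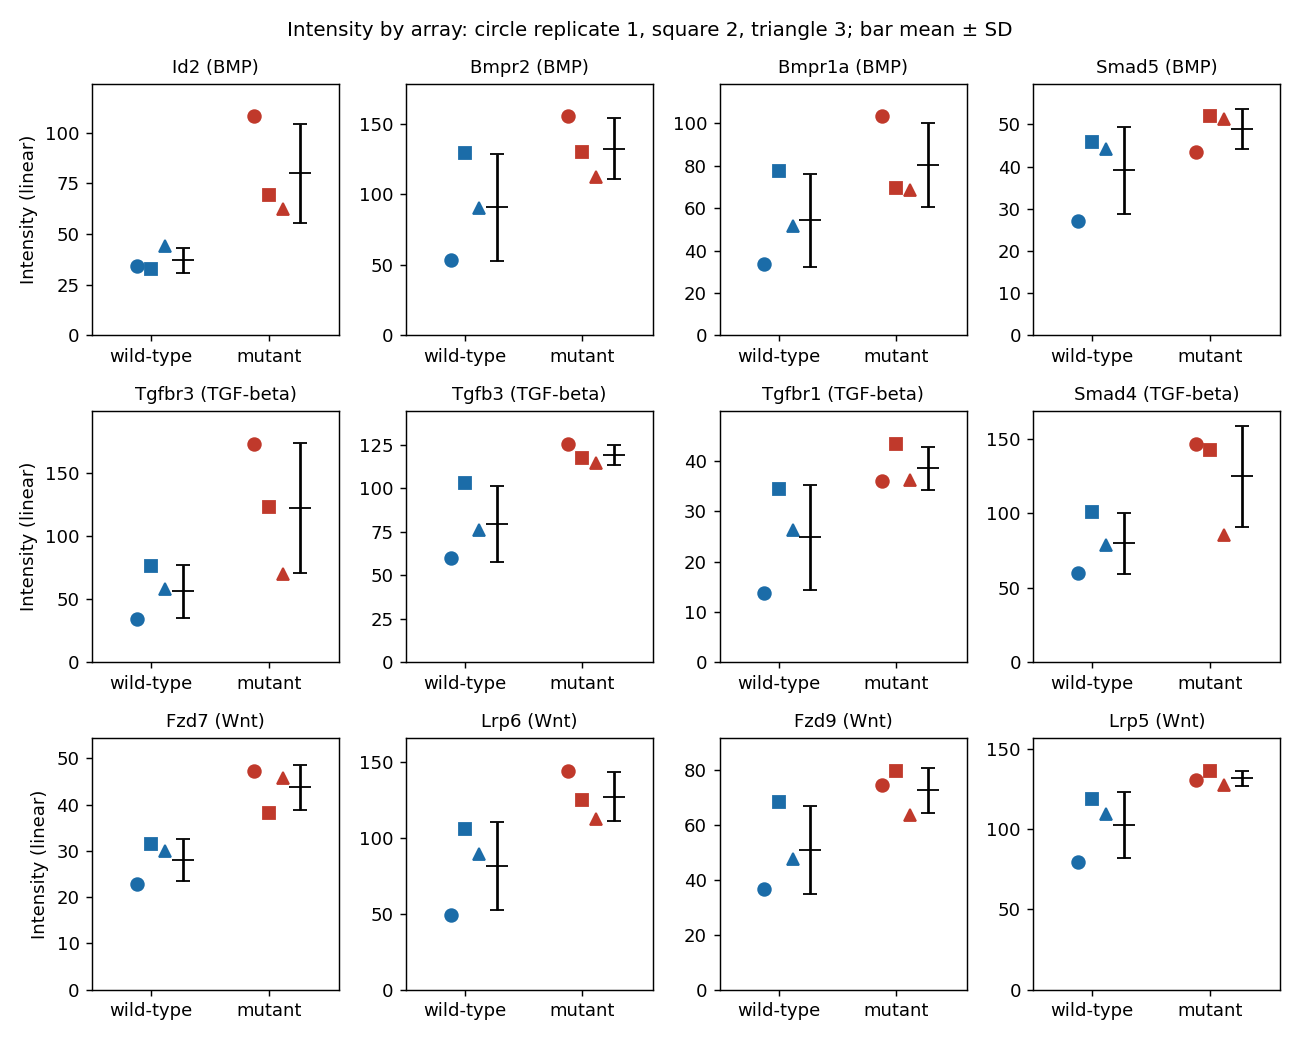
Linear intensities are shown for the 4 members of smallest p in each family, 1 symbol per replicate number, with the mean ± SD of 3 arrays as a bar. In Id2, Tgfb3, Tgfbr1, Fzd7, Lrp6 and Lrp5 every mutant array lies above every wild-type array, while wild-type replicate 1 is the lowest array in all panels but that of Id2.

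Bmpr2 and Bmpr1a had like values across the arrays. Bmpr2, the type II BMP receptor, was at 53.3, 129.4 and 90.3 on wild-type arrays 1 to 3 and at 155.4, 129.9 and 112.1 on mutant arrays 1 to 3. Bmpr1a, a type I receptor needed in cartilage and bone, was at 33.6, 77.5 and 51.5 and at 103.3, 69.4 and 68.4. In both genes wild-type replicate 1 was the lowest array and mutant replicate 1 the highest, as also in Lrp6, Tgfbr3, Fzd7 and Smad4. Wild-type replicate 2 was above at least 1 mutant array in Bmpr2 and in Bmpr1a. The log2 differences were alike, at 0.62 ± 0.31 (SE) each with a limma adjusted p of 0.706, and were 0.28 for Bmpr2 and 0.32 for Bmpr1a without wild-type replicate 1. A further type I BMP receptor outside the naming rule, Acvr1, was at 26.9, 40.9 and 32.8 and at 31.9, 27.4 and 35.8. It did not share the higher mutant values, with a log2 difference of -0.07 ± 0.22 (SE).

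Among the Wnt receptors, Fzd7 had the smallest p. This Frizzled receptor, found in mesenchymal progenitors among other cells, was at 22.8, 31.4 and 29.9 in the wild-type and at 47.3, 38.2 and 45.8 in the mutants. The groups did not overlap, with means of 28.0 ± 4.61 and 43.7 ± 4.85 (SD, n = 3). The log2 difference was 0.65 ± 0.21 (SE, limma adjusted p = 0.595), or 1.57-fold, and it was 0.51 without wild-type replicate 1. Fzd9, a Frizzled receptor required for normal osteoblast function, was at 36.6, 68.2 and 47.4 and at 74.4, 79.6 and 63.4. Mutant replicate 3 was below wild-type replicate 2, and the log2 difference was 0.56 ± 0.25 (limma adjusted p = 0.68), and 0.34 without wild-type replicate 1.

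Both Wnt co-receptors had non-overlapping groups. Lrp6 was at 49.2, 105.6 and 89.2 in the wild-type and at 143.9, 124.8 and 112.3 in the mutants, a log2 difference of 0.71 ± 0.29 (SE, limma adjusted p = 0.667). Lrp5, whose loss lowers bone mass, was at 79.4, 119 and 109.3 and at 131, 136.5 and 127.7. Its log2 difference was 0.38 ± 0.21 (limma unadjusted p = 0.105, adjusted p = 0.709). In both genes wild-type replicate 1 lay farthest from the mutants. Without it the differences were 0.38 for Lrp6 and 0.21 for Lrp5.

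The other Frizzled genes overlapped between the groups. Fzd1 was at 73.5, 100.4 and 78.8 and at 125.8, 116.2 and 71.3, with mutant replicate 3 the lowest of all 6 arrays and a log2 difference of 0.28 ± 0.26 (SE), which ranged from 0.13 (mutant replicate 1 left out) to 0.54 (mutant replicate 3 left out). Fzd4, a receptor of vessels, was at 0.22 ± 0.24 and Fzd2 at 0.007 ± 0.20. Fzd8 was the only receptor with a lower mean, with a wild-type mean of 79.9 ± 15.0 and a mutant mean of 67.4 ± 11.6 (SD, n = 3), for a log2 difference of -0.24 ± 0.22 that was -0.11 without wild-type replicate 2. The direction of Fzd2 turned after quantile normalization (-0.071) and median centring (-0.049), which leaves 11 of 13 receptors higher under either scaling, while that of Fzd8 was kept under all settings.

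Among the Smad genes, that of the shared partner had the largest difference. Smad4 was at 60, 100.8 and 78.9 on wild-type arrays 1 to 3 and at 146.6, 142 and 85.6 on mutant arrays 1 to 3. Mutant replicates 1 and 2 were above all wild-type arrays and mutant replicate 3 was not. The log2 difference was 0.63 ± 0.28 (SE, limma adjusted p = 0.669), and 0.44 without wild-type replicate 1. Smad5, a BMP-activated Smad, was at 27.2, 45.9 and 44.2 and at 43.5, 51.9 and 51.3, a log2 difference of 0.36 ± 0.24, of which 0.11 was left without wild-type replicate 1. The other BMP-activated Smad measured, Smad1, was at -0.063 ± 0.24. The TGF-beta-activated Smad2 and Smad3 were at 0.047 ± 0.25 and 0.26 ± 0.26, and the inhibitory Smad6 and Smad7, which are themselves induced by these pathways, at -0.086 ± 0.19 and 0.074 ± 0.21. Axin1, the scaffold of the beta-catenin degradation complex, was at 0.083 ± 0.22. Tgfb1i1, an adaptor of focal adhesions named for its induction by TGF-beta, was at -0.15 ± 0.20.

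Among secreted Wnt antagonists the differences went both ways. Sfrp4, a decoy receptor that sustains cortical bone, was at 22.3, 40.4 and 37.2 in the wild-type and at 26.3, 15.8 and 26.8 in the mutants. Here wild-type replicate 1 lay within the range of the mutants, and the others lay above it. The log2 difference was -0.53 ± 0.30 (SE, limma adjusted p = 0.709) with all arrays and -0.80 without wild-type replicate 1 (limma adjusted p = 0.712), the largest lower value among the members in both fits. It was -0.28 without mutant replicate 2, -0.37 without wild-type replicate 2 and -0.43 without wild-type replicate 3. Dkk3 was at -0.18 ± 0.22 and Dkk2, which binds Lrp5 and Lrp6, at 0.27 ± 0.27. Sfrp2 was near 50 on 2 of 3 wild-type arrays and on mutant arrays 1 and 2, at 50.8, 65.1 and 50.2 and at 47.5, 47.6 and 101.7. Mutant replicate 3 was thus far above the rest, and the log2 difference of 0.16 ± 0.31 was -0.21 without that array.

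**Figure D4:**
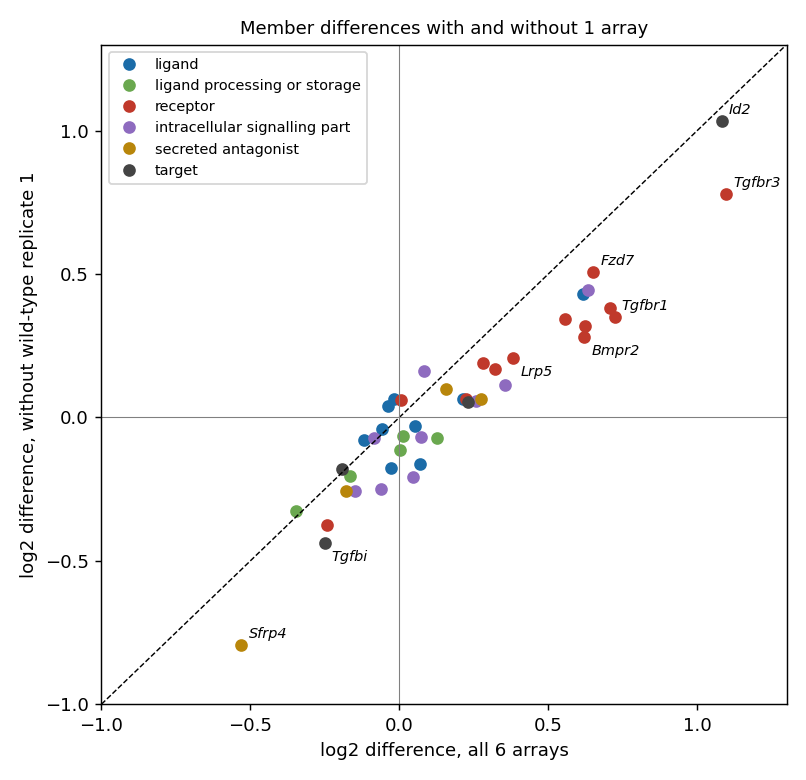
Each point is a member, with its log2 difference over all 6 arrays on the horizontal axis and without wild-type replicate 1 on the vertical axis, and the dashed line marks equal values. Id2 stays near the line (1.08 and 1.03), most receptors drop below it, as Bmpr2 does (0.62 and 0.28), and Sfrp4 moves further down (-0.53 and -0.80).

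Id2 had the smallest p of all members and was the exception among the targets. Id proteins lack a DNA-binding domain and block basic helix-loop-helix factors by pairing with them, and Id2 also takes part in osteoblast and osteoclast differentiation. Its intensities were 34.1, 32.6 and 44.1 on wild-type arrays 1 to 3 and 108, 69.2 and 62.4 on mutant arrays 1 to 3. All mutant values lay well above all wild-type values, with means of 36.9 ± 6.22 and 79.8 ± 24.6 (SD, n = 3). The log2 difference was 1.08 ± 0.25 (SE, limma adjusted p = 0.477), or 2.12-fold. It was between 0.83 and 1.24 under all alternative settings, with adjusted p-values from 0.152, with array weights, to 0.983.

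The other Id genes did not show this difference in size. Id1 was at 55.8, 48.6 and 61.6 in the wild-type and at 55.9, 39.8 and 50.5 in the mutants, a log2 difference of -0.19 ± 0.21 (SE). Id3 was at 32.4, 35.4 and 61.6 and at 55.2, 37.4 and 55.3, a log2 difference of 0.23 ± 0.29 that turned to -0.13 with array weights. In both genes the groups overlapped. Tgfbi, a matrix protein induced by TGF-beta, was at 250.7, 397.5 and 345.3 and at 342, 299.8 and 199, again overlapping, with a log2 difference of -0.25 ± 0.27 that was -0.023 without mutant replicate 3. The difference between Id2 and the other targets was not tested.

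The sequences just before the starts of Id2 and Id3 are given because these related target genes differed in their values, and those of Bmpr1a and Bmpr2 because these receptor genes had the same lowest and highest arrays. Other members, such as Lrp6, Tgfbr3, Fzd7 and Smad4, shared these lowest and highest arrays. Each sequence given is the 250 bases before the annotated RefSeq start on build GRCm38.p6, written on the gene's strand, 5′ to 3′. The window of Id2 is chr12:25096093-25096342 (minus strand), that of Id3 chr4:136143572-136143821 (plus strand), that of Bmpr1a chr14:34502547-34502796 (minus strand) and that of Bmpr2 chr1:59764029-59764278 (plus strand). Capitals mark 3 motifs searched on both strands: the GC-rich BMP-responsive element GGCGCC, the SMAD box CAGAC, which reads GTCTG on the opposite strand, and an element of TCF and LEF factors, CTTTGAT, whose opposite strand reads ATCAAAG.
Id2: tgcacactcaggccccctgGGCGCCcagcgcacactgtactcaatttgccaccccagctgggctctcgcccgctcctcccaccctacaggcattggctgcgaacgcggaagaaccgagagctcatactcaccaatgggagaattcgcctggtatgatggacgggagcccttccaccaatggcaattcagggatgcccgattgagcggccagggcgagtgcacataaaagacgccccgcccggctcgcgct
Id3: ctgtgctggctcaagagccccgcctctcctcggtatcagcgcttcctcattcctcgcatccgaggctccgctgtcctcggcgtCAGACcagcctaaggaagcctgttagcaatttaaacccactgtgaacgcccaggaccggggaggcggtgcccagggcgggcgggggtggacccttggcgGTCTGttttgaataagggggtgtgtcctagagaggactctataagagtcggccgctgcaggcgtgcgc
Bmpr1a: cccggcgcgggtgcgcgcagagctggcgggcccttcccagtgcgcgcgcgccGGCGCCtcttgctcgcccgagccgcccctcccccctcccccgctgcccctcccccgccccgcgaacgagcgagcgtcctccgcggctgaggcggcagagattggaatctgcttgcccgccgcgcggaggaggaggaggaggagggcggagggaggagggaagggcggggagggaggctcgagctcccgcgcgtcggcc
Bmpr2: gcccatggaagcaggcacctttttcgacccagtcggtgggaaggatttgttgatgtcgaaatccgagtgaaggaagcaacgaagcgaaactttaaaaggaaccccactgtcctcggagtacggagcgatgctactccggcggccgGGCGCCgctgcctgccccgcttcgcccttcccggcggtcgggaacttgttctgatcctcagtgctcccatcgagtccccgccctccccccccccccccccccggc

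The GC-rich element occurred once before Id2, starting 231 bases before its start, once before Bmpr1a (198 bases before) and once before Bmpr2 (105 bases before). Id3 had no such match but 2 SMAD boxes, 167 and 68 bases before its start. The GC-rich element was found in 11 of 32 windows of 26 members with an entry in the RefSeq promoter table, and in 9.59% of all 32851 windows. The SMAD box was in 13 of the 32 and in 42.2% of all, and the TCF and LEF element in 0 of the 32 and in 3.21% of all. The GC-rich element also lay before members with lower means, such as Wnt9a (log2 difference -0.037) and Tgfbi (-0.251). It lay before others with higher means, such as Fzd9 (0.555), and was absent before Fzd7 (0.651). Whether it goes with the differences was not tested. Windows of the same gene can overlap, base composition was not matched, and a match is a description of letters, not of a bound site.

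Other genes of these pathways, taken from lists outside the naming rule, also held 0 members past an adjusted p of 0.05. For the counts of higher means below, the share of all probe sets was 56.7%, and 44.7% without wild-type replicate 1. Of 11 other ligands and extracellular antagonists of the BMP and TGF-beta pathways, 8 had higher means, with a median log2 difference of 0.041, but 3 were higher without wild-type replicate 1 (median -0.015). The smallest p-values among them were those of Fbn2, a fibrillin that anchors latent ligands (0.39 ± 0.25), and Bambi, a decoy receptor (0.35 ± 0.23). Of 19 other receptors and intracellular parts 13 were higher (median 0.082), and 10 without wild-type replicate 1 (median 0.021). Acvr1b, a type I activin receptor, was at 15.4, 19.7 and 18.4 in the wild-type and at 29.2, 32 and 21.8 in the mutants, a log2 difference of 0.62 ± 0.22 (SE, limma adjusted p = 0.638). All its wild-type values were under 20, and every deposited probe set reached 20 on at least 3 arrays. That its groups did not overlap and that the mutants were higher was thus fixed by that filter. Its p-value cannot be read as a test, and it is counted among the 13 higher genes. Ppm1a, a phosphatase of Smads, was at 0.54 ± 0.25.

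Target genes of BMP and TGF-beta outside the rule were divided, with 8 of 17 higher and a median of -0.094, or 6 and -0.16 without wild-type replicate 1. Ccn2, a matricellular protein induced by TGF-beta, was at 287.7, 778.1 and 402.6 in the wild-type and at 1437, 1127 and 489.8 in the mutants, overlapping, a log2 difference of 1.05 ± 0.45 (SE, limma adjusted p = 0.667). Acta2, the smooth muscle actin of contractile fibroblasts and vessel walls, was at 296.2, 396.3 and 459.7 and at 199.2, 259.8 and 287.4, with all mutant values below the wild-type ones, a log2 difference of -0.62 ± 0.24 (limma adjusted p = 0.664). These classic TGF-beta-induced genes thus had differences of opposite sign.

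In the Wnt pathway, 12 of 15 other ligand, receptor and inhibitor genes had higher means (median 0.17), and 10 did without wild-type replicate 1 (median 0.043). Lrp4, a receptor for sclerostin, was at 34.2, 43.4 and 38.1 in the wild-type and at 60.5, 63 and 47.1 in the mutants, without overlap, a log2 difference of 0.56 ± 0.21 (SE, limma adjusted p = 0.657). Lgr4, an R-spondin receptor, was at 0.66 ± 0.31. Of 28 intracellular parts 22 were higher (median 0.17), but 16 were without wild-type replicate 1, with a median of 0.029. Tnks2, a tankyrase that marks Axin for degradation, was at 43.3, 81.1 and 60.3 and at 90.1, 101.9 and 90.5, without overlap, a log2 difference of 0.66 ± 0.25 (limma adjusted p = 0.664), and Tcf7l1, a nuclear partner of beta-catenin, was at 0.36 ± 0.19.

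Wnt target genes were divided evenly, with 6 of 12 higher and a median of -0.013, but 3 were higher without wild-type replicate 1 (median -0.068). Lef1, both a nuclear partner of beta-catenin and a Wnt target, was at 18.5, 17.2 and 18.6 in the wild-type and at 26.9, 20.6 and 21 in the mutants. The filter by level again fixed the order and the direction, and Lef1 is counted as higher here and among the intracellular parts. Its log2 difference was 0.32 ± 0.20 (SE). Twist2, a repressor of osteoblast maturation, was at -0.46 ± 0.23. With all arrays, the lists of targets of both kinds had medians of -0.094 and -0.013, beside 0.041 to 0.17 in the other pathway lists. The median over all probe sets was 0.045, and -0.033 without wild-type replicate 1. Over genes with a single symbol it was 0.072, so the list of other BMP and TGF-beta ligands and antagonists (0.041) also lay below it. Of 36 and 28 symbols listed for these targets, former names included, 17 and 12 entered. Targets among the members had a median of 0.019. The lists were not matched to each other, and the contrast between them was not tested.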

How the data were processed

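The deposited table held linear intensities, 1 summarised value for each of 8997 probe sets on 6 single-colour Affymetrix whole-transcript arrays. Background correction, summarisation and scaling by the authors are not given in the sources used here. No probe set had fewer than 3 arrays at or above 20, a filter the labels do not describe. Gene names came from the platform annotation, where 6398 probe sets had 1 symbol, 576 several and 2023 none listed. All 44 members' symbols matched RefSeq (GRCm38.p6) by Entrez identifier. The number of arrays limits precision.

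Intensities were converted to log2 without further normalization or filter, and group means were fitted to all probe sets with limma 3.58.1 under R 4.3.3 (lmFit, eBayes; two-sided, Benjamini-Hochberg adjusted over 8997 probe sets, threshold 0.05). Log2 differences are given as mutant minus wild-type, and their SE is the moderated one. Levels are means ± SD of linear intensities. Adjusted p-values are from limma. Values by array are given for the 4 members of smallest p and the 3 brightest of each family and for those whose groups did not overlap, and for a few others chosen after their values were seen. Genes outside the rule were named if among the 2 of smallest p in their list, or if their groups did not overlap at an unadjusted p under 0.05. Acvr1 met neither condition and was named with its values known. Members, lists and roles were chosen with earlier results of these data known. In 20 simulated data sets of 8997 probe sets with 200 changed, 37.8% of 2-fold and 86.8% of 4-fold changes were recovered, and 4.38% of calls were false. The simulated noise was independent between probe sets, without shifts shared across an array such as that of wild-type replicate 1. These rates may therefore not hold for the real arrays. Python 3.11.15, pandas 2.3.3 and matplotlib 3.10.9 were used for tables and plots. The alternatives tried were other scalings, an offset, filters, variance models, array weights, a replicate block, other ways to choose probe sets, and leaving out each array.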

Additional observations from a re-analysis of the deposited data

How the results depend on the processing

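No member was called under any of the 16 alternatives. The number at an unadjusted p under 0.05 was 7 with all arrays (15.9% of the members, 7.44% of all probe sets), 6 with the replicate block (13.6% and 7.57%), 8 after quantile normalization (18.2% and 9.49%) or median centring (18.2% and 9.6%), and 2 to 10 when single arrays were left out (4.55% to 22.7%, where 3.58% to 10.8% of all probe sets were). Array weights gave 9 (20.5% of the members, but 15.7% of all probe sets). It was 4 (9.09% and 6.89%) with median centring without wild-type replicate 1, a setting chosen after seeing the data. The median difference of the members was between 0.005 and 0.227, the latter over 32 members without the dimmest 25% of probe sets. It moved by less than the SD between replicates of the arrays' median deviations (0.177). That SD is above the median of 0.079 with all arrays, so a move within it says little. The receptors' median difference was between 0.28 and 0.74 (SD 0.282). Deviations of arrays of the same number in the 2 groups had correlations of -0.107, -0.026 and 0.315 for numbers 1 to 3. The highest correlation was that of wild-type replicate 1 with mutant replicate 2 (0.338). With 3 arrays per group such values cannot settle a pairing, and the numbers were not taken as pairs in the main fit. Directions were kept under all alternatives by 27 members, 12 of them receptors, and turned by 17, each with a difference of at most 0.23 in size over all arrays. After quantile normalization the turned values were Axin1 -0.00021, Bmp1 -0.055, Fzd2 -0.071, Ltbp3 -0.053, Smad2 -0.038, Tgfb1 -0.003 and Tgfb2 -0.043. After median centring the turned values were Bmp1 -0.053, Fzd2 -0.049, Ltbp3 -0.043, Smad2 -0.0094 and Tgfb1 -0.0042. With array weights the turned values were Bmp1 -0.159, Bmp4 0.0079, Bmp7 0.0033, Id3 -0.131, Ltbp3 -0.097, Smad2 -0.116, Smad7 -0.027, Tgfb1 -0.087, Tgfb2 -0.011 and Wnt9a 0.0054. With median centring without wild-type replicate 1 the turned values were Bmp1 -0.075, Bmp7 0.104, Ltbp1 -0.035, Ltbp3 -0.027, Smad2 -0.169, Smad7 -0.032, Tgfb2 -0.126 and Wnt9a 0.079. Leaving out single arrays in turn gave ranges, for Axin1 from -0.04 to 0.22, Bmp1 from -0.112 to 0.111, Bmp3 from -0.254 to 0.117, Bmp4 from -0.157 to 0.025, Bmp7 from -0.084 to 0.066 and Fzd2 from -0.112 to 0.073. Further ranges were those of Ltbp1 from -0.072 to 0.358, Ltbp3 from -0.079 to 0.098, Sfrp2 from -0.21 to 0.34, Smad1 from -0.25 to 0.132, Smad2 from -0.206 to 0.186 and Smad7 from -0.069 to 0.203. The last were those of Tgfb1 from -0.031 to 0.176, Tgfb2 from -0.163 to 0.401, Wnt5a from -0.176 to 0.165 and Wnt9a from -0.117 to 0.041. The cause of these turns was not tested. Dim members, 10 of which were under an intensity of 20 on at least 1 array, have folds open to the unstated background handling.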
